A study of Mus musculus with 3 samples.

Results

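Transducin is the G protein that couples a light-activated opsin to the phosphodiesterase of the photoreceptor outer segment. It is made of an alpha subunit, which binds GTP and switches on the phosphodiesterase, and a beta and a gamma subunit that hold the complex together at the membrane. Rods and cones build it from different genes: Gnat1, Gnb1 and Gngt1 in rods, and Gnat2, Gnb3 and Gngt2 in cones. Their mRNA was described here in mouse retina at postnatal day 12 (P12), when outer segments are still growing. The 6 genes were taken by name and their probes by RefSeq accession, which gave 7 of the 55681 probes on the array and 6 of the 21362 genes that could be named.

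Total RNA from 1 retina sample labelled Otx2 KI, 1 labelled Crx KO and 1 labelled wild-type was hybridised to 1 array each, all in the same Cy3 dye. Otx2 and Crx are homeodomain transcription factors of photoreceptors and bipolar cells, KI is the usual short form for knock-in and KO for knockout, and the design compares the expression profiles of the 3 genotypes. The alleles, the strain, the zygosity and the number of retinas behind each RNA are not given in the sources used here. With 1 array per genotype no difference has a replicate check, no test was possible, and each value describes these RNA preparations only.

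Signals below are scaled signals, that is, the scanner's background-subtracted intensity after each array was brought to the same 75th percentile, on the scale of the wild-type array. Of the non-control spots, 63.5% to 67.1% per array were well above background and 0 were saturated. The Crx probe read 1062 in the array labelled Otx2 KI, 7177 in the array labelled Crx KO and 9790 in wild-type, and since the labels do not say which part of either gene was altered, this signal checks neither label and every direction below rests on them. The tissue carried retinal markers on all 3 arrays: all 5 rod, 12 bipolar, 8 amacrine, 6 ganglion cell and 6 Muller glia markers were well above background. Of 6 cone markers, Opn1sw was not well above background in either mutant array. Markers of neighbouring tissue moved as well. Pigment epithelium markers had a median log2 difference from wild-type of -0.94 in Otx2 KI and -1.64 in Crx KO, with a summed signal of 10597 in Otx2 KI, 6891 in Crx KO and 21140 in wild-type over 6 genes, of which 2 in Otx2 KI and 4 in Crx KO were at least 2-fold below wild-type. Lens markers summed to 687 in Otx2 KI, 192 in Crx KO and 257 in wild-type over 5 genes, of which 3 were well above background on every array and were all at least 2-fold above wild-type in Otx2 KI and within 2-fold in Crx KO. The part of either tissue in the results below was not tested.

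Promoter sequence from RefSeq (GRCm38.p6) is shown for 3 of the subunit genes, because Crx and Otx2, after which the mutant arrays are labelled, are known to bind sites of the type TAATCC. Each window runs from 250 bases before to 50 bases after a transcription start, 5′ to 3′ on the gene's strand, and capitals mark a match to TAATCC or TAATCT on either strand. They are Gnat2 (chr3:108092816-108093115, plus strand), Gnb1 (chr4:155491111-155491410, plus strand) and Gngt1 (chr6:3993758-3994057, plus strand). Gnat1, Gnb3 and Gngt2 had no window in the set used here, so they are named only and were not searched for motifs.
Gnat2: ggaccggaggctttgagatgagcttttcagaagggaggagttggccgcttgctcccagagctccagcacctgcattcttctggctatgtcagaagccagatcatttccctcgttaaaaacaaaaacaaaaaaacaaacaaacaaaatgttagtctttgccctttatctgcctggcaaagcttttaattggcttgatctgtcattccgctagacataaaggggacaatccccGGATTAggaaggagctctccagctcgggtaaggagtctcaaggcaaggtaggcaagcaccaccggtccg
Gnb1: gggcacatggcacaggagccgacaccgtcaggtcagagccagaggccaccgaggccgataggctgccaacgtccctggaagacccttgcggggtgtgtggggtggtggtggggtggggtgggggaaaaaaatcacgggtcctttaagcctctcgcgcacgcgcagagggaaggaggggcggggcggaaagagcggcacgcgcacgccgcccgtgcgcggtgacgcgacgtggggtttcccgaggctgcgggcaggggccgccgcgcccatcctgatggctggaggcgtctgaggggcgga
Gngt1: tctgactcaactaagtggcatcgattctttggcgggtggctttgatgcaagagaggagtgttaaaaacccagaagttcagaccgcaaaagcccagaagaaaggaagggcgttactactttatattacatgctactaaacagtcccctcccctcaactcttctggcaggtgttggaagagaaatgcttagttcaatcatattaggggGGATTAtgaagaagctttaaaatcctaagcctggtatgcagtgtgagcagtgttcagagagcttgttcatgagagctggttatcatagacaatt
The cone gene Gnat2 held 1 match to TAATCC, read as GGATTA on the gene's strand and beginning 19 bases before the start. The rod gene Gngt1 held 1 match too, also as GGATTA and beginning 44 bases before the start. Gnb1 held 0 matches to TAATCC, and none of these windows held TAATCT. Over all 32851 windows of 300 bases in the table, 7.06% held TAATCC and 8.19% held TAATCT on either strand. The short motif TGCTGA, of the type bound by the rod factor Nrl, was in 0 of the 3 windows and in 19.5% of all windows. AGGTCA, a core motif of nuclear receptors, was in the Gnb1 window alone of the 3 and in 16.3% of all windows, and the E-box CANNTG was in each of the 3 and in 72.3% of all. None of the matches in these windows overlapped another. The Gnb1 window was also the richest in G and C of the 3, at 70.3% against 48.7% for Gnat2 and 43.7% for Gngt1, with a median of 52.7% over all windows. A match is a match of letters and not a binding site.

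The 3 rod subunits were 2-fold or more below wild-type in both mutant arrays, by very unequal amounts, and none of the 3 cone subunits was. Among the cone subunits Gngt2 was more than 4-fold above wild-type in both arrays, Gnb3 was somewhat above, and Gnat2 was below by less than 2-fold. In Otx2 KI the rod gene Gngt1 (log2 -1.07) and the cone gene Gnat2 (log2 -0.95) lay on either side of the 2-fold line. They were closer to each other, and to that line, than the measurement error of 0.20, so the line does not separate them there. In Otx2 KI against wild-type, 3 of 6 genes were thus lower and 1 was higher, where 2.53% of 15805 measured genes were lower and 1.35% were higher. In Crx KO against wild-type the counts were again 3 lower and 1 higher, where 3.43% of 16044 measured genes were lower and 1.95% were higher. The 2 comparisons share their wild-type array, so whatever is particular to that array enters both. In whole retina, fewer cells of a type and less RNA per cell cannot be told apart.

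**Figure D1:**
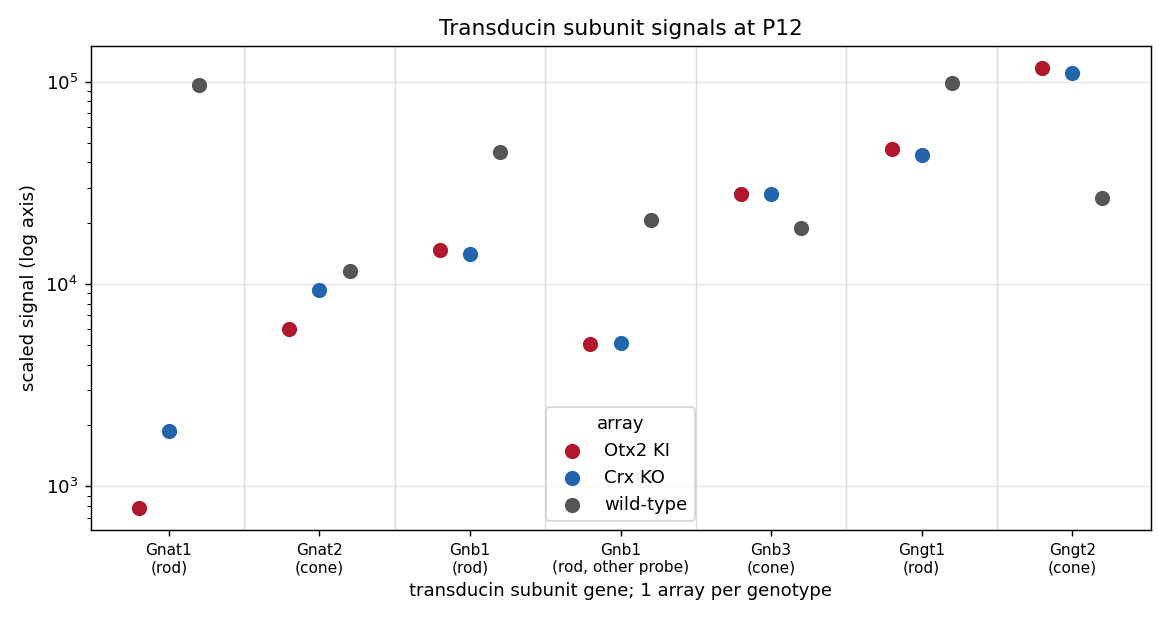
Scaled signal (log axis) of each transducin subunit probe on the arrays labelled Otx2 KI and Crx KO and on the wild-type array, 1 point per array. The rod probes read lower in both mutant arrays than in wild-type, with Gnat1 at 781 and 1885 against 96776, while Gngt2 read 117238 and 110149 against 26795; heights of different probes are not comparable.

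Gnat1 encodes the rod alpha subunit, which passes the light signal on to the rod phosphodiesterase. Its scaled signal was 781 in the array labelled Otx2 KI, 1885 in the array labelled Crx KO and 96776 in wild-type. The wild-type array stood far above both mutant arrays, and Crx KO lay above Otx2 KI. The log2 difference from wild-type was -6.95 in Otx2 KI (124-fold lower) and -5.68 in Crx KO (51.3-fold lower), each with a measurement error of 0.20 by the scanner's error model. In order of size this was the second lowest difference of the 15805 genes measured in Otx2 KI and the third lowest of the 16044 measured in Crx KO.

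Gnat2 encodes the cone alpha subunit, the counterpart that follows the cone opsins. It read 5991 in Otx2 KI, 9361 in Crx KO and 11578 in wild-type. The order of the arrays was the same as for Gnat1, but the spacing was small. It was 1.93-fold lower in Otx2 KI (log2 -0.95), just short of 2-fold, and 1.24-fold lower in Crx KO (log2 -0.31), each with an error of 0.20. In Otx2 KI 2.85% of measured genes had a lower difference, and in Crx KO 18.1% had.

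Gnb1 encodes the beta subunit of rod transducin and is also made by many other cell types. Its brighter probe, A_52_P304858, read 14683 in Otx2 KI, 14018 in Crx KO and 45260 in wild-type, which is 3.08-fold lower (log2 -1.62) and 3.23-fold lower (log2 -1.69). The other probe, A_51_P335081, read 5071 in Otx2 KI, 5108 in Crx KO and 20671 in wild-type. That is 4.08-fold lower (log2 -2.03) in Otx2 KI and 4.05-fold lower (log2 -2.02) in Crx KO. Both probes placed the mutant arrays side by side and well below wild-type, and their log2 differences lay further apart than in the typical gene, as over 4237 genes with several probes the median range between probes was 0.12 in Otx2 KI and 0.15 in Crx KO.

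Gnb3 encodes the beta subunit of cone transducin, and in mouse retina it is also made by ON-bipolar cells. It read 27820 in Otx2 KI, 27814 in Crx KO and 18902 in wild-type. The mutant arrays had almost the same signal, above wild-type. The gene was 1.47-fold higher in each (log2 0.56 in both, error 0.20), within 2-fold. The 12 bipolar markers lay between log2 -0.35 and 0.08 in Otx2 KI and between -0.47 and 0.14 in Crx KO. Which cells the Gnb3 signal came from was not tested.

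Gngt1 encodes the rod gamma subunit, a small lipid-anchored protein. It read 46698 in Otx2 KI, 43513 in Crx KO and 98263 in wild-type. Both mutant arrays were at a similar level below wild-type, and the gene lay just past the 2-fold line, at 2.10-fold lower in Otx2 KI (log2 -1.07) and 2.26-fold lower in Crx KO (log2 -1.18), with an error of 0.20.

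Gngt2 encodes the cone gamma subunit and was the only member above wild-type by 2-fold or more. It read 117238 in Otx2 KI, 110149 in Crx KO and 26795 in wild-type. The mutant arrays were close to each other, at 4.38-fold (log2 2.13) and 4.11-fold (log2 2.04) the wild-type level, with an error of 0.20. Only 0.158% of measured genes had a higher difference in Otx2 KI and 0.362% in Crx KO. The annotated span of Gngt2 overlaps Abi3, whose own probe was 1.61-fold higher in Otx2 KI and 1.62-fold higher in Crx KO at signals of 246 in Otx2 KI, 247 in Crx KO and 153 in wild-type. Gngt2 rests on 1 probe, matched to transcript NM_001284393, and the other annotated transcripts of the gene were not matched to a probe.

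**Figure D2:**
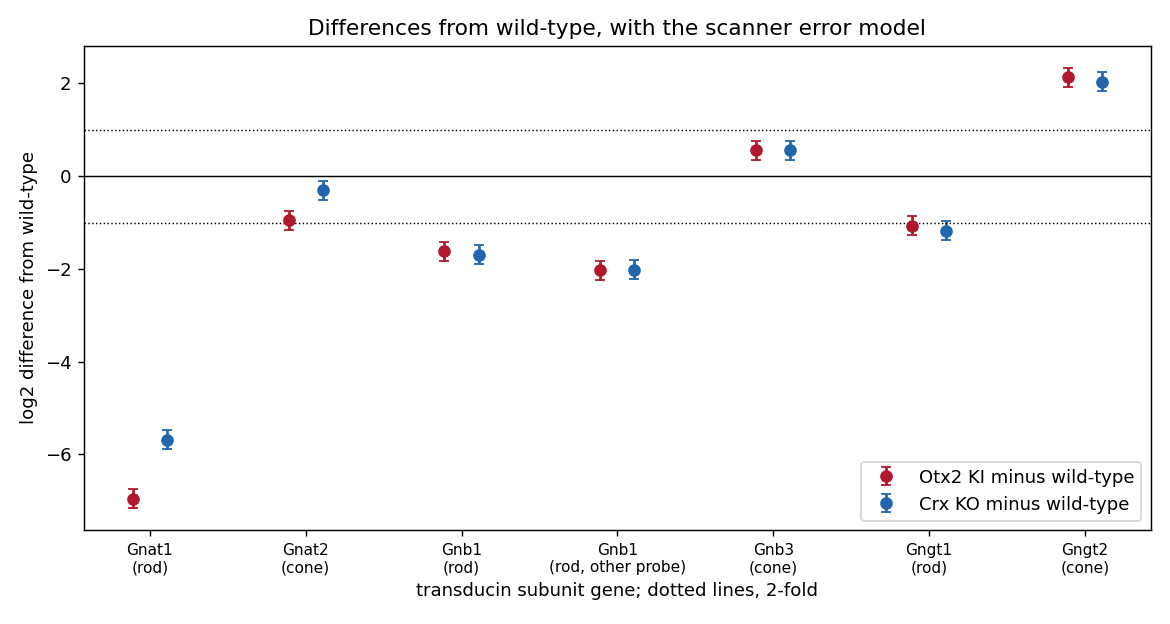
Log2 difference from wild-type of each transducin subunit probe in the arrays labelled Otx2 KI and Crx KO, with bars for 1 measurement error of the scanner software and dotted lines at 2-fold. Gnat1 lies at -6.95 and -5.68, the other rod probes between -1.07 and -2.03, and the cone probes between -0.95 and 2.13.

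Within each class of subunit the rod gene was lower relative to wild-type than the cone gene, on both mutant arrays. This was read as the log2 difference of the rod gene minus that of the cone gene, which compares changes and not levels. For the alpha pair it was -6.00 in Otx2 KI and -5.38 in Crx KO. For the beta pair it was -2.18 in Otx2 KI and -2.25 in Crx KO. For the gamma pair it was -3.20 in Otx2 KI and -3.21 in Crx KO. The measurement error of each value was 0.29. The beta and gamma pairs gave almost the same value on both arrays, and the alpha pair was the widest.

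The mutant arrays were also set directly against each other, which leaves the wild-type array out. Gnat1, at 781 in Otx2 KI and 1885 in Crx KO, was 2.41-fold lower in the array labelled Otx2 KI (log2 -1.27, error 0.20). It was the 1 member of 6 past 2-fold, where 0.646% of 15801 measured genes were lower and 0.677% were higher. Gnat2 was 1.56-fold lower in Otx2 KI (log2 -0.64), at 5991 in Otx2 KI and 9361 in Crx KO. The alpha subunits of both cell types thus differed between the mutant arrays by more than the measurement error. The beta and gamma genes differed by less than that error, at log2 0.07 for Gnb1, 0.00 for Gnb3, 0.10 for Gngt1 and 0.09 for Gngt2. The rod minus cone value of the alpha pair was -0.63 with an error of 0.29, against 0.07 for the beta pair and 0.01 for the gamma pair.

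The genes nearest to each subunit in pattern were those with the smallest Euclidean distance between the log2 differences of Otx2 KI and Crx KO from wild-type, among 14899 named genes well above background on all 3 arrays. Near Gnat1 were Pdzph1 at a distance of 0.97, with log2 differences of -6.08 in Otx2 KI and -5.25 in Crx KO, and Rcvrn, the calcium sensor recoverin, at 0.98, and 0 genes lay within 0.5 of Gnat1. Around Gngt2 18 genes lay within 0.5, the nearest being Gabrr3, a GABA receptor subunit gene, at 0.04, then Rasl10a at 0.11 and Cltb, a clathrin light chain gene, at 0.13. The other subunits sat in denser ground. Within 0.5 lay 105 genes for Gnb1 (nearest Dnajc14, Llgl2 and Prl3d1), 374 for Gngt1 (Col17a1, Thoc5 and Eno4), 501 for Gnat2 (Catsperg2, Glyatl3 and Slc23a4) and 2150 for Gnb3 (Folr1, Plppr1 and Triobp). The 3 genes named for Gnat2 were dim, at signals of 15.4 to 27.3 in Otx2 KI. The lowest signal well above background on that array was 12.4. Some genes named for other subunits were dim too. Pdzph1 read 50.1 in Otx2 KI and 89.0 in Crx KO, Eno4 read 46.3 in Otx2 KI and 43.6 in Crx KO, and Rasl10a read 42.8 in wild-type. A likeness over 3 arrays rests on 2 values per gene.

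**Figure D3:**
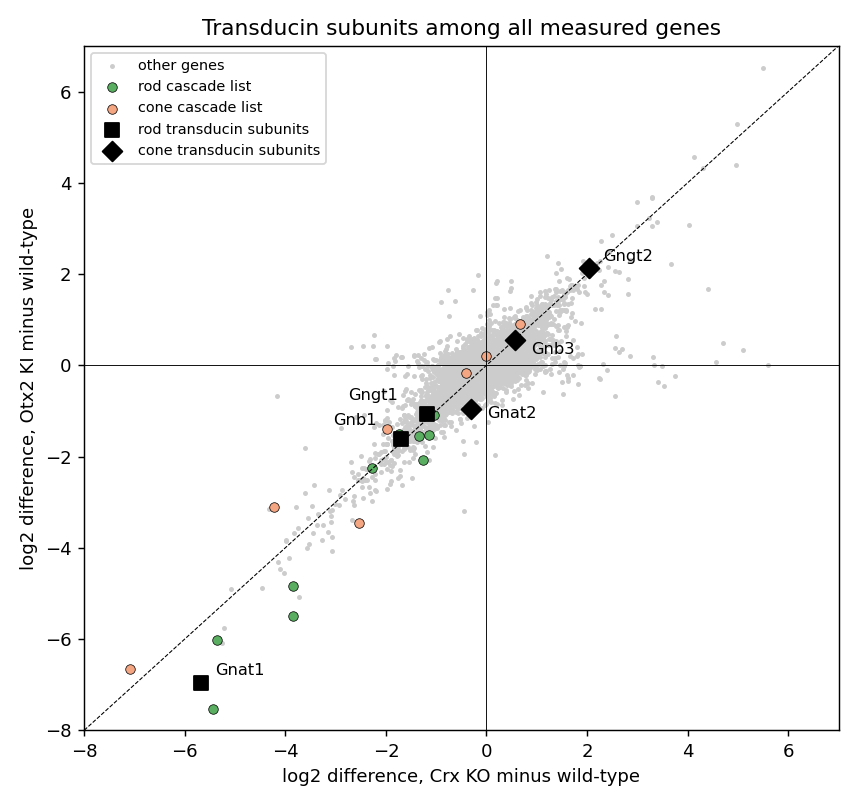
Log2 difference from wild-type in Otx2 KI (vertical axis) against that in Crx KO (horizontal axis) for genes well above background on all 3 arrays, with transducin subunits in black and the rod and cone cascade lists in colour; both axes share the wild-type array. Gnat1 lies at the lower left (-6.95 and -5.68), Gngt2 at the upper right (2.13 and 2.04), and Gnat2 below the dashed line of equality.

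Transducin works with proteins that shut it off, carry it and chaperone it. Of 10 such genes, all measured, 3 stood at 2-fold or more below wild-type and 0 at 2-fold or more above it in each mutant array, with a median log2 difference of -0.64 in Otx2 KI and -0.65 in Crx KO, where the median of all measured genes was 0.03 and -0.01 and 2.53% of them were lower in Otx2 KI and 3.43% in Crx KO. Gpsm2, a G protein regulator that binds alpha subunits, read 537 in Otx2 KI, 587 in Crx KO and 3052 in wild-type, which is 5.68-fold and 5.20-fold lower. Rgs9bp, the membrane anchor of the complex that speeds GTP hydrolysis by transducin, read 1338 in Otx2 KI, 1764 in Crx KO and 4311 in wild-type (3.22-fold and 2.44-fold lower), and a dim second probe gave log2 -0.81 and -0.74. Gnb5, the beta subunit within the same complex, was 2.57-fold lower in Otx2 KI and 1.97-fold lower in Crx KO (log2 -0.98, or -1.05 when centred on markers of other retinal cells). Rgs9, its catalytic subunit, was within 2-fold, with log2 -0.20 and -0.13.

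Other genes of the same list concern the transport of transducin. Klhl18, a substrate adaptor of a Cul3 ubiquitin ligase that acts on Unc119 in mouse rods, lay at the 2-fold line, 1.96-fold lower in Otx2 KI (log2 -0.97, or -1.01 with that centring) and 2.08-fold lower in Crx KO. Pdc, or phosducin, which binds the beta and gamma subunits, and Unc119, which binds the lipid tail of the alpha subunit, were within 2-fold. Pdc was 1.40-fold lower in Otx2 KI and 1.50-fold lower in Crx KO, and Unc119 was 1.50-fold lower in Otx2 KI and 1.49-fold lower in Crx KO. Rgs9, Pdc and Unc119 were named after their values were seen. Of 7 genes for adding, processing or binding the lipid tails of G proteins, 1 was at least 2-fold below wild-type in each mutant array. Of all measured genes 2.53% were in Otx2 KI and 3.43% in Crx KO. The 1 gene was Icmt, which methylates prenylated proteins, 2.61-fold lower in Otx2 KI and 2.66-fold lower in Crx KO on its brightest probe. Its other probes lay within 2-fold, from log2 -0.71 to -0.86 in Otx2 KI and from -0.76 to -0.83 in Crx KO, and the mean over all its probes was -0.98 in Otx2 KI.

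The other genes of the rod cascade were below wild-type with the rod subunits. Of 10 rod cascade genes, 10 were at least 2-fold below wild-type in Otx2 KI (median log2 -2.16) and 10 in Crx KO (median -2.01). Rcvrn was 65.0-fold lower in Otx2 KI and 41.2-fold lower in Crx KO, Pde6a, a catalytic subunit of the rod phosphodiesterase, 45.4-fold and 14.4-fold lower, and Slc24a1, the rod sodium-calcium exchanger gene, 28.4-fold and 14.4-fold lower. Gnat1 lay below Rcvrn on both mutant arrays. The highest of the 10 was Grk1, a photoreceptor kinase that acts on opsins, at log2 -1.08 in Otx2 KI and -1.05 in Crx KO, and with its probes averaged it was within 2-fold in both (-0.98 and -0.59). Gngt1 was close to Grk1, and Gnb1 lay between it and the list median.

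The cone cascade was mixed. Of 8 genes 7 were measured on both arrays of each comparison, of which 4 were at least 2-fold below wild-type and 3 within 2-fold, with a median of -1.40 in Otx2 KI and -1.97 in Crx KO (-2.25 and -2.26 with Opn1sw at its bound). Opn1mw, a cone opsin gene, was 101-fold lower in Otx2 KI and 135-fold lower in Crx KO (log2 -6.66 and -7.08, or -5.55 and -5.73 with normexp background correction). Pde6h, an inhibitory subunit of the cone phosphodiesterase, was 8.58-fold and 18.8-fold lower, and Arr3, cone arrestin, 10.96-fold and 5.83-fold lower. The other opsin gene, Opn1sw, was not well above background in either mutant array and read 207 in wild-type, so it was at least 16.7-fold lower in Otx2 KI and at least 20.9-fold lower in Crx KO, against the lowest signal well above background on each array. The 3 list genes within 2-fold were Cngb3, Slc24a2 and Cnga3. Cngb3 stood at log2 0.90 in Otx2 KI and 0.67 in Crx KO, Slc24a2 at 0.205 and -0.004, and Cnga3 at -0.17 and -0.40. The 3 cone subunits of transducin, at log2 -0.95, 0.56 and 2.13 in Otx2 KI, all lay above the cone list's median. They did so in Crx KO too, at -0.31, 0.56 and 2.04. Cngb3, Slc24a2 and Cnga3 shared that position on both mutant arrays.

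Of 14 other alpha subunit genes 13 were within 2-fold of wild-type in each mutant array. That is near the share of all measured genes (96.1% in Otx2 KI and 94.6% in Crx KO). The 14 genes had medians of -0.02 in Otx2 KI and -0.04 in Crx KO. The exception was Gnat3, the alpha subunit gustducin of taste cells and a close relative of the transducin alpha subunits. Gnat3 read 60.1 in Otx2 KI, 74.1 in Crx KO and 1130 in wild-type, which is 18.8-fold lower (log2 -4.23, or -3.30 with normexp background correction) and 15.2-fold lower (log2 -3.93, or -3.22). Whether the Gnat3 probe also binds Gnat1 mRNA was not tested. Gnaz, the next in size, was 1.81-fold lower in Otx2 KI and 1.53-fold lower in Crx KO.

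Of 12 other beta and gamma genes 11 were within 2-fold in each comparison, again near the 96.1% and 94.6% of all measured genes, with medians of 0.16 in Otx2 KI and 0.14 in Crx KO. Gnb2, a widely made beta subunit, read 62401 in Otx2 KI, 57567 in Crx KO and 30105 in wild-type, at 2.07-fold and 1.91-fold the wild-type level (log2 0.94 in Crx KO, or 1.02 with quantile normalization). Gng10, a gamma subunit gene, was 1.75-fold higher in Otx2 KI and 1.79-fold higher in Crx KO, and Gnb4 1.13-fold and 1.28-fold higher. Gng8, a gamma subunit gene on chromosome 7, which also carries Crx, read 266 in Otx2 KI, 70.2 in Crx KO and 249 in wild-type. Only Crx KO stood apart there, 3.55-fold below wild-type (log2 -1.83, or -1.19 with normexp), while Otx2 KI was 1.07-fold above it. Whether the shared chromosome has a part in this was not tested.

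**Figure D4:**
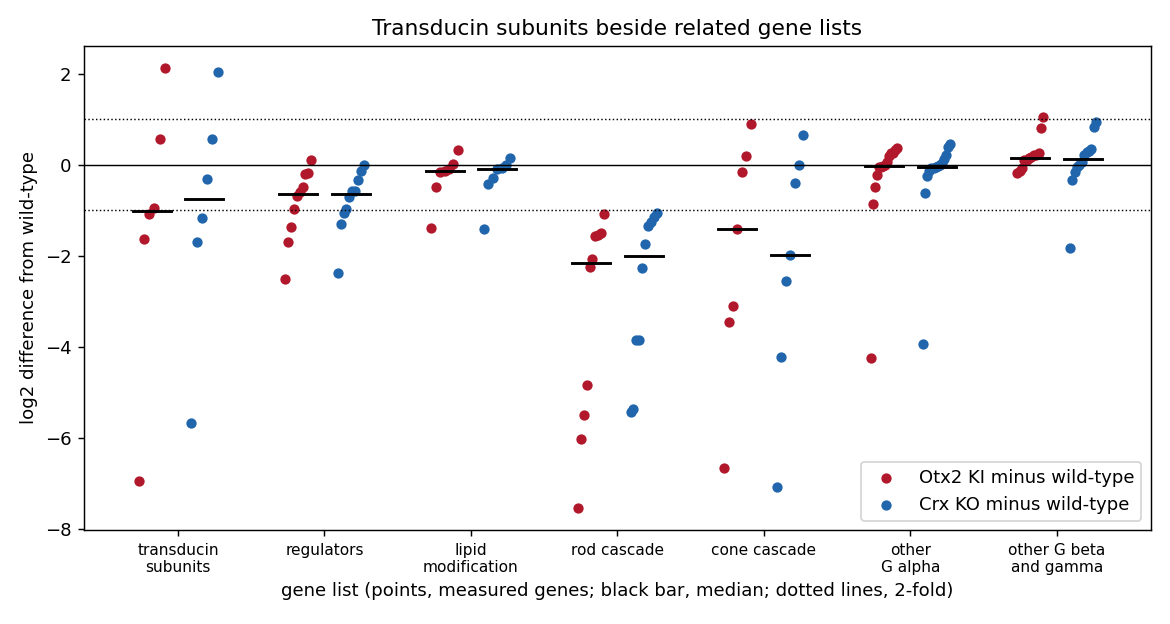
Log2 difference from wild-type in the arrays labelled Otx2 KI and Crx KO for the transducin subunits and 6 related gene lists; points are genes well above background on both arrays, black bars are medians and dotted lines mark 2-fold. All rod cascade genes lie at or below -1.05, while 13 of 14 other alpha and 11 of 12 other beta and gamma genes lie within 2-fold.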

How the data were processed

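RNA from 3 mouse retina samples at P12 was read on 1-colour Agilent arrays, 1 per genotype. Per the file headers, the authors' scanner files hold a Cy3 intensity per spot from Agilent Feature Extraction 12.0.3.1, already background-subtracted, on a design annotated against mm9. The authors' deposited value table holds the same intensity multiplied by 1 constant per array (2.54 for Otx2 KI, 2.61 for Crx KO and 2.49 for wild-type), linear and uncentred, with column medians of 125.7, 135.8 and 129.8; the basis of the constants was not recorded in those headers.

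Control and outlier spots (126 to 136 per array) were left out, spots of a probe were averaged, and the log2 intensity was reduced by each array's 75th percentile. Accessions were matched without versions to RefSeq genes of GRCm38.p6, used for names, gene order and promoter windows; 28325 probes had a symbol. A gene was its probe of highest mean log2 signal, and was measured when well above background on both arrays. Genes were called at 2-fold. The number of arrays limits the precision. The scanner files give no mean signal, so normexp background correction (offset 50) was run on their median signals. The planned comparison of protein sequences was not made. The members, lists and rules were chosen with earlier results of these data known: all 6 subunits, partner genes past 2-fold, up to 4 genes per other list with the largest differences, and the 3 nearest genes in pattern were named; 1 gene is not reported here. The 2-fold calls were tested on simulated data, with a known shift in Otx2 KI against wild-type that was larger than 2-fold. Scaling and choice of probe were run there but could not fail. The scaling removed the same constants that the simulation had put in, and every probe of a shifted gene was shifted alike. The other steps were not. Python 3.11.15, numpy 2.4.6, pandas 2.3.3, scipy 1.17.1, R 4.3.3 and limma 3.58.1 were used.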

Additional observations from a re-analysis of the deposited data

How the results depend on the processing

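The counts of subunits past 2-fold were the same, and the rod minus cone values against wild-type moved by less than 1 measurement error, under normexp background correction, quantile normalization, median scaling, centring on markers of other retinal cells, averaging of probes, no filter on dim probes and the authors' deposited table. Over these settings the log2 difference of Gnat1 ranged from -6.99 to -6.85 in Otx2 KI and from -5.75 to -5.60 in Crx KO, and that of Gngt2 from 2.10 to 2.18 and from 1.97 to 2.12. The cone cascade median moved without the filter, to -2.25 in Otx2 KI and -2.26 in Crx KO, since Opn1sw then entered. Counts over all genes did depend on these choices. With normexp 130 genes were higher in Otx2 KI than in wild-type (213 otherwise). In Crx KO 182 were higher and 328 lower (313 and 550 otherwise), and between the mutants 35 and 50 (107 and 102). Without the filter 498 were higher and 906 lower in Otx2 KI (213 and 400 with it), 788 and 1077 in Crx KO, and 394 and 579 between the mutants. In Crx KO Grk1 was also within 2-fold with quantile normalization and in the authors' deposited table (log2 -0.99 in both). No paired analysis was possible because there is 1 array per genotype, and leaving out an array could not be done.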

Other observations

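Genes next to the transducin subunits on the chromosome were read as well, a comparison added after seeing the data. The nearest named gene well above background on each side of each subunit, in GRCm38.p6, gave 12 flanking genes, and each was within 2-fold of wild-type in both mutant arrays, where 96.1% of all measured genes were in Otx2 KI and 94.6% in Crx KO. The count is near that of genes at large. Beside Gnat1 these were Slc38a3, an amino acid transporter gene, at log2 -0.87 in Otx2 KI and -0.89 in Crx KO, and Sema3f, a guidance cue gene, at 0.43 and 0.69. Beside Gngt2 they were Zfp652 at 0.08 and -0.01 and Gip, at signals of 14.7 to 21.3, at -0.53 and -0.43. Gngt1 lies next to Gng11, another gamma subunit gene, which stood at 0.14 in Otx2 KI and -0.06 in Crx KO, and Vps50, at -0.03 and -0.15. Gnat2 lies next to Gnai3, another alpha subunit gene, at 0.36 in Otx2 KI and 0.39 in Crx KO, and Ampd2, at 0.21 and 0.58. Beside Gnb3, itself at 0.56 in both, P3h3 stood at 0.75 in Otx2 KI and 0.76 in Crx KO, and Cdca3, on the other side, at -0.35 in Otx2 KI and -0.71 in Crx KO.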
